A study of Mus musculus with 5 samples.

Results

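The genes described here are 10 genes of blood vessels and their growth: the endothelial adhesion genes Pecam1 and Cdh5, the vascular endothelial growth factor (VEGF) receptors Kdr and Flt1, the angiopoietin receptor Tek with its partner Tie1, and the secreted ligands Vegfa, Vegfc, Angpt1 and Angpt2. They were chosen by symbol for their known roles, and all 10 were found among the 24527 genes of the deposited count table. Bulk RNA-seq had been performed on prostate tumor tissue of 5 TripleTg mice, 3 castrated and 2 intact. Every mouse carried the same alleles, labelled hHGFtg-hMETtg-BCAT-PBCre. These are hHGFtg, H11 hMET/+, Ctnnb1 L(Ex3)/+ and the Cre allele PB Cre4. A human HGF transgene is active throughout the body, whereas the human MET transgene and the stabilized β-catenin allele are switched on by Cre under the probasin promoter, which is active in prostate epithelium. Castration, which removes the main source of androgen, had been done at 4 months of age, and all mice were analyzed at 8 months. The strain was a mix of C57BL/6 and C3H SCID, and each sample was a separate animal. There was no untransformed prostate among the samples, so that the comparison is between tumors only. The libraries of castrated replicates 1 to 3 held 28015507, 18951782 and 20492061 counts in total, and those of intact replicates 1 and 2 held 21560355 and 22853501.

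Blood vessels are lined by endothelial cells. VEGF-A, encoded by Vegfa, is released by many cell types, and in particular by cells short of oxygen, and signals mainly through the receptor tyrosine kinase encoded by Kdr, while the product of Flt1 binds the same ligand tightly with weak signaling of its own. Angiopoietin 1, made largely by cells around the vessel, activates the receptor encoded by Tek and stabilizes vessels, and angiopoietin 2, made largely by endothelial cells, can oppose it. VEGF-C acts chiefly on the receptor encoded by Flt4 and is known for the growth of lymphatic vessels. Androgen is a known regulator of blood supply in the prostate.

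The promoter sequences of Kdr, Tek and Vegfa are shown because these 3 members had an unadjusted p under 0.05 in the comparison below. They are the 250 bases before the gene start in RefSeq on build GRCm38.p6, written 5′ to 3′ on the strand of the gene, at chr5:75978456-75978705 (minus strand) for Kdr, chr4:94739039-94739288 (plus strand) for Tek and chr17:46032378-46032627 (minus strand) for Vegfa. Capitals mark matches on either strand to short motifs bound by vascular or oxygen-responsive factors, namely AGGAAG and CGGAAG for ETS factors, ACGTG and GCGTG for hypoxia-inducible factors, AGATAA for GATA factors and CACCC for KLF factors. No matches overlapped each other.
Kdr: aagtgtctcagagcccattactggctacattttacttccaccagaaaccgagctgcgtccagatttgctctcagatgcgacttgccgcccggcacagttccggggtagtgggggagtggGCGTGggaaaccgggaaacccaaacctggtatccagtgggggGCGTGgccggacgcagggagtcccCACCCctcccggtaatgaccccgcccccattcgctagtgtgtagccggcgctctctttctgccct
Tek: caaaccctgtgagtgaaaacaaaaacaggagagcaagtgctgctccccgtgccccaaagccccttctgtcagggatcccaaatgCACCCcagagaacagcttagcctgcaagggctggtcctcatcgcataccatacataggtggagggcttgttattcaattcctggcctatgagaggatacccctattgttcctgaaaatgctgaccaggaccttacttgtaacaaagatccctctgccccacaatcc
Vegfa: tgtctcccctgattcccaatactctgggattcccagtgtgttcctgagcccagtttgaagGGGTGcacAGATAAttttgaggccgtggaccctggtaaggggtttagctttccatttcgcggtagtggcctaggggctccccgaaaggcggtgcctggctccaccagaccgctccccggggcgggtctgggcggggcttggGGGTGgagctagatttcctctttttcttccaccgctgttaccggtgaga
The window of Kdr held GCGTG at 131 and 89 bases and CACCC at 65 bases before the start. That of Tek held CACCC at 166 bases. That of Vegfa held CACCC at 190 and 49 bases and AGATAA at 182 bases. Of 32536 distinct windows of this length, 29.6% held AGGAAG, 13.7% CGGAAG, 16.7% ACGTG, 28.3% GCGTG, 9.97% AGATAA and 52.1% CACCC, so that CACCC, the one motif in all 3 windows, was in most promoters. A match is a run of letters and not a measured binding site. Windows were matched for 6 of the 10 members (Kdr, Flt1, Tek, Tie1, Vegfa and Vegfc).

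The samples differed in ways that the groups do not explain. Intact replicate 2 held prostate secretory genes that the other 4 samples nearly lacked. Tgm4, which encodes a prostate transglutaminase, had 1342 CPM (counts of a gene relative to the library total, scaled with TMM factors here and below) in intact replicate 2 and at most 0.417 in the other samples. Pbsn, whose promoter drives the Cre, was at 5.19 CPM in that sample and at 0.452 or less in the others. Epithelial markers were present in all 5 samples, with Krt8 between 659 and 1151 CPM and Epcam between 509 and 1320 CPM. The intact replicates also stood apart from each other in the members. Intact replicate 1 exceeded intact replicate 2 in 10 of 10 members, against 6718 of all 14612 genes tested, with a ratio between 1.30 for Kdr and 7.07 for Vegfc. Among castrated samples the highest was between 1.34 times (Cdh5) and 2.67 times (Angpt1) the lowest.

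Endothelial transcripts were well measured in every tumor. Per length of transcript, as TPM, the highest mean level over the 5 samples was that of Vegfa, at 88.3, followed by Cdh5 at 58.1 and Pecam1 at 53.8. Angpt2 at 17.3, Flt1 at 13.4, Tie1 at 12.4, Tek at 12.02 and Kdr at 11.4 TPM formed a lower group, and Vegfc at 9.32 and Angpt1 at 5.91 TPM were the lowest. Of the neighbors in this order, Vegfa was above Cdh5 and Pecam1 above Angpt2 in 5 of 5 samples. Cdh5 was above Pecam1 in 2 of 5 samples. The genes from Angpt2 to Angpt1 also exchanged places from sample to sample, with Kdr above Vegfc in 4 of 5 samples and Vegfc above Angpt1 in 3 of 5. The order of Cdh5 and Pecam1, and that from Angpt2 to Angpt1, was therefore not distinguishable from the spread between mice. The fewest counts behind any value were 36, for Vegfc in intact replicate 2.

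The question of the comparison was whether these genes differed between tumors that had grown without testicular androgen and tumors of intact mice. Pecam1, Kdr and Tek were higher in all castrated tumors than in either intact tumor, and Vegfa was lower in all of them. The other 6 members overlapped between the groups. edgeR's quasi-likelihood test was run on genes that exceeded a CPM of 1 in 2 or more samples, and all 10 members did so. With Benjamini-Hochberg adjustment over the 14612 genes tested, 0 members and 0 genes in all (0.00%) passed an adjusted p under 0.05 with an absolute log2 fold change above 1. At an unadjusted p under 0.05, 2 members (Kdr and Tek) were higher and 1 (Vegfa) was lower, against 8.74% of all genes tested that were higher and 6.28% that were lower. Groups without overlap in CPM occurred in 3 members in the higher and 1 member in the lower direction, against 17.0% and 16.1% of all genes. The log2 fold change was positive for 6 members, against 47.9% of all genes, and its median was 0.11 over the members and -0.03 over all genes tested. The median of the members was 0.43 with limma voom, 0.44 with limma on log2(TPM + 1) and 0.43 when replicate numbers were blocked. DESeq2 called 1 member (Tek), against 6.77% of all genes, and the likelihood ratio test of edgeR called 0 members, against 2.53%. In tissue RNA, more cells of a type and more RNA per cell cannot be told apart.

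**Figure D1:**
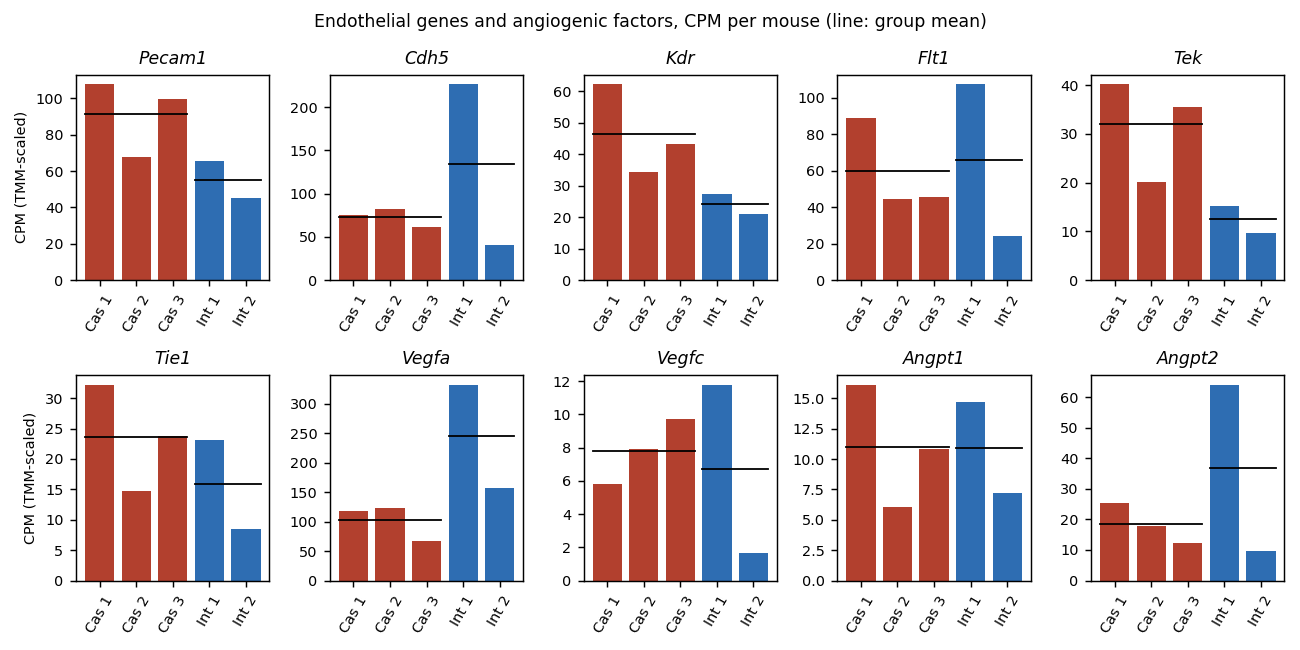
Expression of the 10 members in each mouse, as CPM with TMM scaling on axes that start at 0, with 1 bar for each mouse (castrated in red, intact in blue) and black lines at the group means. Pecam1, Kdr and Tek lie higher in all 3 castrated mice than in both intact mice, Vegfa lies lower, and Cdh5 of intact replicate 1 (226 CPM) stands far above the other 4 mice.

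Among the receptors, Tek differed most. Tek, on chromosome 4 from 94739289 to 94874976 (plus strand), was at 40.2, 20.2 and 35.6 CPM in castrated replicates 1, 2 and 3 and at 15.1 and 9.77 CPM in intact replicates 1 and 2. The lowest castrated sample was thus above the highest intact one. The castrated mean was 32.0 ± 10.5 (SD, n = 3) and the intact mean 12.5 ± 3.79 (SD, n = 2). The log2 fold change of castrated over intact was 1.36 (standard error, SE, 0.41, Benjamini-Hochberg adjusted p = 0.297 in edgeR's quasi-likelihood test). Its partner Tie1, an orphan receptor on chromosome 4 from 118471191 to 118489849 (minus strand), was at 32.2, 14.7 and 23.8 CPM in castrated and at 23.2 and 8.52 CPM in intact samples, and the groups overlapped. The log2 fold change of Tie1 was 0.57 (SE 0.55). The TPM ratio of Tek to Tie1 was 1.03, 1.13 and 1.23 in castrated samples and 0.538 and 0.945 in intact samples, without overlap. With 3 against 2 mice, the smallest two-sided p that an exact permutation test can give is 0.1, and such ratios were therefore not tested.

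Kdr, the main signaling receptor for VEGF-A, lies on chromosome 5 from 75932827 to 75978455 (minus strand). It was at 62.1, 34.2 and 43.3 CPM in castrated and at 27.4 and 21.0 CPM in intact samples, again with no overlap. Means were 46.5 ± 14.3 (SD, n = 3) and 24.2 ± 4.52 (SD, n = 2), a log2 fold change of 0.94 (SE 0.33, Benjamini-Hochberg adjusted p = 0.312 in edgeR's quasi-likelihood test). Flt1, the other VEGF-A receptor, on chromosome 5 from 147561604 to 147726011 (minus strand), was at 88.9, 44.5 and 45.7 CPM in castrated and at 107 and 24.5 CPM in intact samples. The intact mice bracketed all castrated ones, and the log2 fold change was -0.14 (SE 0.67). The TPM ratio of Flt1 to Kdr was 2.74 in intact replicate 1 and between 0.739 and 1.001 in the other 4 samples, so 1 mouse stood apart in the balance of these receptors.

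The adhesion genes behaved unlike each other. Pecam1, which encodes the junction protein CD31 and is also made by platelets and some leukocytes, lies on chromosome 11 from 106654213 to 106715281 (minus strand). It was at 108, 67.7 and 99.4 CPM in castrated and at 65.6 and 45.1 CPM in intact samples, with castrated replicate 2 close to intact replicate 1. Means were 91.6 ± 21.1 (SD, n = 3) and 55.4 ± 14.5 (SD, n = 2), a log2 fold change of 0.73 (SE 0.30, unadjusted p = 0.0559, Benjamini-Hochberg adjusted p = 0.344 in edgeR's quasi-likelihood test). Cdh5, which encodes VE-cadherin of endothelial junctions, lies on chromosome 8 from 104101625 to 104144502 (plus strand). It was at 75.8, 82.1 and 61.3 CPM in castrated and at 226 and 41.2 CPM in intact mice, so that the intact mice held both the highest and the lowest value. The log2 fold change was -0.87 (SE 0.66, Benjamini-Hochberg adjusted p = 0.568 in edgeR's quasi-likelihood test) and became 0.85 without intact replicate 1.

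**Figure D2:**
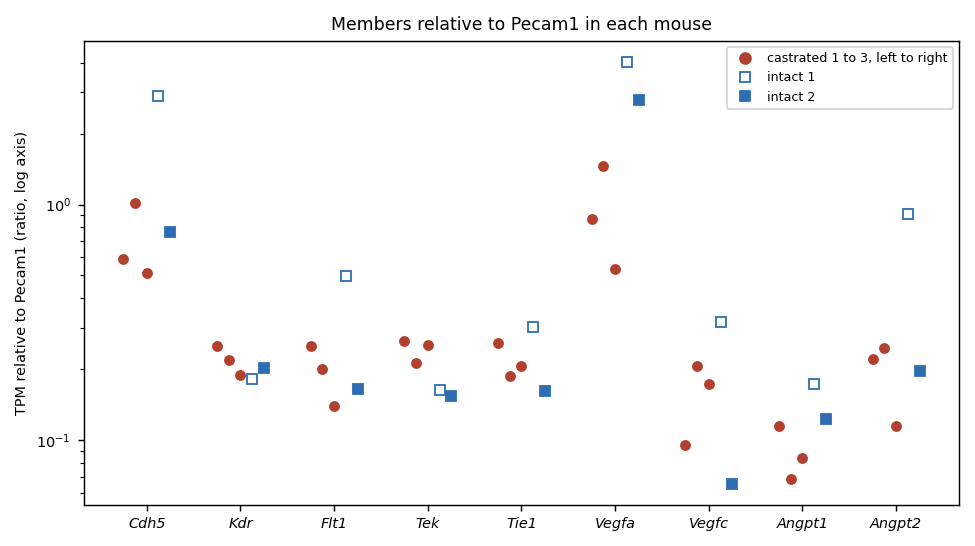
TPM of each member divided by TPM of Pecam1 in the same mouse, on a log axis, with castrated mice as red circles and intact mice as blue squares (open for replicate 1). Kdr stays between 0.181 and 0.250 of Pecam1 in all 5 mice, whereas intact replicate 1 lies above all other mice in Cdh5, Flt1, Tie1, Vegfa, Vegfc, Angpt1 and Angpt2.

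Relative to Pecam1, Kdr varied least. The TPM ratio of Kdr to Pecam1 was 0.250, 0.219 and 0.189 in castrated and 0.181 and 0.202 in intact samples. That of Tek to Pecam1 was 0.264, 0.212 and 0.254 in castrated and 0.163 and 0.154 in intact samples, so Tek was higher in castrated samples also per unit of Pecam1. That of Flt1 was between 0.140 and 0.496 and that of Tie1 between 0.163 and 0.304, both highest in intact replicate 1. That of Cdh5 to Pecam1 was 0.587, 1.01 and 0.515 in castrated and 2.88 and 0.763 in intact samples, with intact replicate 1 again apart. As a measure of likeness between members, the root mean square difference of log2 CPM centered over the 5 samples was smallest for Pecam1 and Kdr, at 0.165. It was 0.270 for Kdr and Tek and 0.270 for Cdh5 and Angpt2, against 0.885 for Cdh5 and Pecam1. The largest was 1.37, for Tek and Vegfa.

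Among the ligands, Vegfa was lower in castrated samples. Vegfa, on chromosome 17 from 46016993 to 46032377 (minus strand), was at 117, 124 and 66.2 CPM in castrated and at 332 and 157 CPM in intact samples. All castrated samples were below both intact samples in CPM, though not as TPM, and the intact samples themselves differed by a factor of 2.12 in CPM. Means were 102 ± 31.5 (SD, n = 3) and 245 ± 124 (SD, n = 2), a log2 fold change of -1.26 (SE 0.42, Benjamini-Hochberg adjusted p = 0.309 in edgeR's quasi-likelihood test). Set against its receptor, the TPM ratio of Vegfa to Kdr was 3.47, 6.63 and 2.81 in castrated and 22.2 and 13.7 in intact samples. The ligand was thus the more abundant transcript in every tumor. The groups did not overlap in the ratio, which follows from the opposite separation of the 2 genes in CPM. The ratio of Vegfa to Pecam1 was 0.868, 1.45 and 0.531 in castrated and 4.03 and 2.77 in intact samples, also without overlap, which follows in the same way.

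The angiopoietins and Vegfc did not separate the groups. Angpt1, the Tek agonist, on chromosome 15 from 42424667 to 42676977 (minus strand), was at 16.1, 6.04 and 10.8 CPM in castrated and at 14.7 and 7.18 CPM in intact samples, with a log2 fold change of 0.01 (SE 0.54). Angpt2, its context-dependent antagonist, on chromosome 8 from 18690263 to 18741562 (minus strand), was at 25.5, 17.9 and 12.2 CPM in castrated and at 64.1 and 9.49 CPM in intact samples. The log2 fold change of Angpt2 was -0.99 (SE 0.78) and became 0.99 without intact replicate 1, so that its direction rested on that mouse. The TPM ratio of Angpt2 to Angpt1 was 1.91, 3.60 and 1.37 in castrated and 5.29 and 1.60 in intact samples. Angpt2 was the more abundant of the pair in 5 of 5 mice, with overlapping groups. Vegfc, on chromosome 8 from 54077532 to 54186454 (plus strand), was at 5.81, 7.91 and 9.71 CPM in castrated and at 11.8 and 1.67 CPM in intact mice. Its log2 fold change was 0.21 (SE 0.81) and became -0.59 without intact replicate 2.

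Some members share their place in the genome with other genes, and the strand setting used in counting is not stated in the sources used here. Angpt2 lies within Mcph1, a gene of the opposite strand that was at 16.8, 8.55 and 13.4 CPM in castrated and at 16.9 and 20.7 CPM in intact samples. Mcph1 was lower in intact replicate 1 than in intact replicate 2, unlike Angpt2. Cdh5 overlaps Gm29682, which had 0 counts in all samples. The RefSeq genes Gm33153 at Vegfc, Gm32727 at Kdr, Gm35383 at Flt1 and Gm41313 at Angpt1 have no row of their own in the table. Reads from such pairs cannot be told apart without strand, and values of these members hold that uncertainty.

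**Figure D3:**
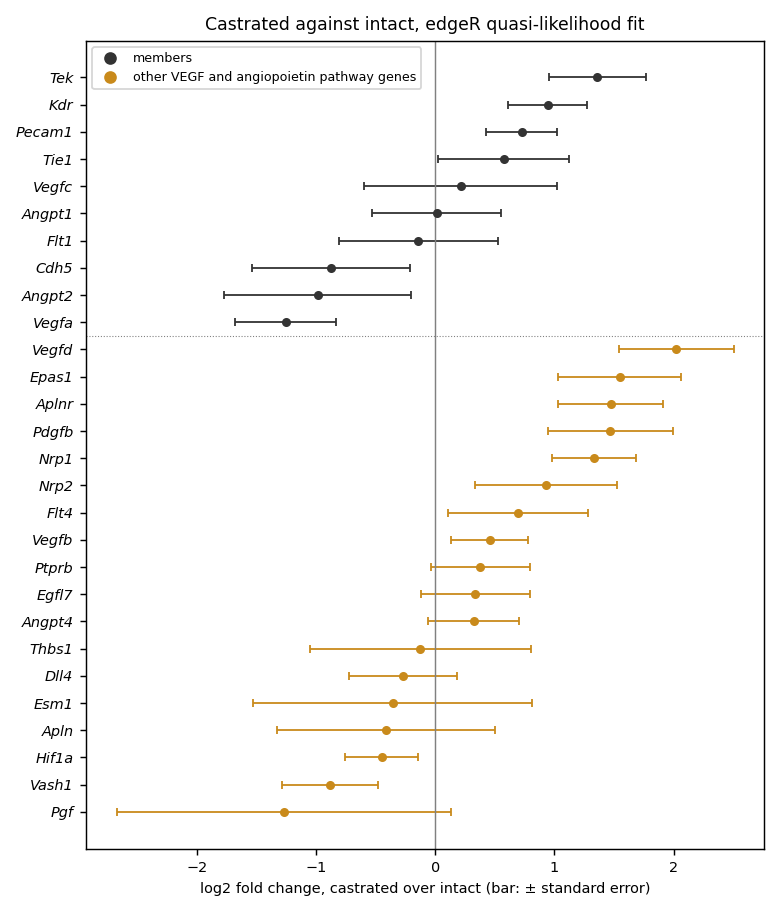
Log2 fold change of castrated over intact samples for the 10 members and the 18 other genes of the VEGF and angiopoietin pathways, with bars of 1 standard error from edgeR's quasi-likelihood fit and a line at 0. Vegfd (2.02), Epas1 (1.55), Tek (1.36) and Nrp1 (1.33) lie to the right of 0 and Vegfa (-1.26) to the left, while Pgf (-1.27) has a bar of 1.40 that reaches across 0.

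Of 18 other genes of the VEGF and angiopoietin pathways, all tested, 0 were called with edgeR's quasi-likelihood test, 11 had a positive and 7 a negative log2 fold change, and the median was 0.36. At an unadjusted p under 0.05, 5 were higher and 0 lower in castrated samples, against 8.74% and 6.28% of all genes tested. The same 5 were higher without overlap, against 17.0% of all genes, and 1 (Vash1) was lower without overlap, against 16.1%. With DESeq2, 3 of the 18 were called (Vegfd, Nrp1 and Aplnr), against 6.77% of all genes, and with the likelihood ratio test of edgeR 1 was called (Vegfd), against 2.53%. Vegfd, a ligand that like VEGF-C acts on the receptor encoded by Flt4, was at 13.2, 27.8 and 30.1 CPM in castrated and at 4.69 and 6.99 CPM in intact samples. It had the largest positive value of the 18, with a log2 fold change of 2.02 (SE 0.48, Benjamini-Hochberg adjusted p = 0.289 in edgeR's quasi-likelihood test). Nrp1, a co-receptor that binds VEGF-A beside Kdr, was at 58.8, 109 and 97.6 CPM in castrated and at 42.0 and 28.4 CPM in intact samples, a log2 fold change of 1.33 (SE 0.35). Epas1, which encodes the hypoxia-inducible factor HIF-2α and is abundant in endothelium, was at 103, 158 and 287 CPM in castrated and at 78.5 and 46.5 CPM in intact mice. Its log2 fold change was 1.55 (SE 0.51), with castrated replicate 3 highest. Pdgfb, by which endothelial cells recruit pericytes, was at 21.3, 65.1 and 36.6 CPM against 17.3 and 12.3 CPM. Aplnr, the apelin receptor, was at 20.8, 10.4 and 10.9 CPM against 4.78 and 5.33 CPM. Both Pdgfb and Aplnr had a log2 fold change of 1.47, with standard errors of 0.53 and 0.44.

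The remaining pathway genes did not reach an unadjusted p of 0.05. Vash1, an endothelial inhibitor of angiogenesis, was at 6.92, 5.13 and 3.59 CPM in castrated and at 10.8 and 8.48 CPM in intact samples, the one gene of the 18 that was lower without overlap, with a log2 fold change of -0.88 (SE 0.41). Pgf, a ligand of Flt1, was at 77.2 CPM in intact replicate 1 and 1.39 CPM in intact replicate 2, with castrated samples at 30.5, 9.73 and 8.59 CPM between them. Thbs1, whose product inhibits angiogenesis, was likewise highest in intact replicate 1 at 2272 CPM and lowest in intact replicate 2 at 266 CPM. Pgf and Thbs1 therefore had the pattern of Cdh5, Flt1 and Angpt2, with castrated samples between extremes set by the intact mice. Esm1 and Apln, genes of endothelial tip cells, had log2 fold changes of -0.36 and -0.41, and Dll4, a Notch ligand of the same cells, of -0.27. Without castrated replicate 1, Esm1 was at -2.53 and Apln at -1.49. Esm1 became 0.14 without castrated replicate 2, Apln 0.27 without intact replicate 2 and Dll4 0.50 without intact replicate 1. Hif1a, the widely expressed hypoxia-inducible factor, was at 226, 253 and 153 CPM in castrated and at 345 and 231 CPM in intact samples, with overlap. The log2 fold changes of Nrp2, Flt4, Vegfb, Ptprb, Egfl7 and Angpt4 were 0.93, 0.70, 0.46, 0.38, 0.34 and 0.32. These values depended on single mice. With 1 mouse left out, they ranged from 0.31 to 2.04 for Nrp2, 0.04 to 1.96 for Flt4 and 0.24 to 0.73 for Vegfb. Ranges were 0.03 to 0.85 for Ptprb, -0.16 to 1.12 for Egfl7 and 0.19 to 0.49 for Angpt4.

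Of 20 further endothelial markers, 16 had a positive and 4 a negative log2 fold change, with a median of 0.62. The groups did not overlap in 8, all higher in castrated samples, against 17.0% of all genes. At an unadjusted p under 0.05, 3 were higher, against 8.74% of all genes, and 0 were called with edgeR's quasi-likelihood test. DESeq2 called 3 (Cd34, Selp and She), against 6.77% of all genes, and the likelihood ratio test 0. Cd34, a surface protein of endothelial and also of stromal cells, was at 90.1, 70.7 and 149 CPM in castrated and at 42.4 and 29.4 CPM in intact samples, a log2 fold change of 1.52 (SE 0.40). Ecscr, an endothelial receptor, was at 185, 88.7 and 56.8 CPM in castrated and at 285 and 35.2 CPM in intact samples, again with intact replicate 1 highest and intact replicate 2 lowest. Cldn5, a tight junction gene of endothelium, was at 254 CPM in castrated replicate 1 and between 4.26 and 44.5 CPM in the other samples. The intact mice held both ends of that range. Its log2 fold change of 2.08 (SE 1.49) was 0.18 without castrated replicate 1, 4.62 without intact replicate 1 and 1.22 without intact replicate 2. The summed level of the list was 1109, 512 and 657 CPM in castrated and 778 and 329 CPM in intact samples, with overlap.

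Markers of lymphatic vessels were higher in castrated samples in 5 of 6 genes, each without overlap and with an unadjusted p under 0.05. The shares of all genes tested were 17.0% higher without overlap and 8.74% higher at that p. Of the lymphatic markers, 0 were called with edgeR's quasi-likelihood test. DESeq2 called 5 of them (Mmrn1, Reln, Lyve1, Pdpn and Ccl21a), against 6.77% of all genes. The likelihood ratio test called 2 (Mmrn1 and Reln), against 2.53%. The median log2 fold change was 3.05. Mmrn1, a secreted protein of lymphatic endothelium and platelets, was at 38.2, 31.7 and 65.9 CPM in castrated and at 1.29 and 3.75 CPM in intact samples, a log2 fold change of 4.16 (SE 0.66, Benjamini-Hochberg adjusted p = 0.289 in edgeR's quasi-likelihood test). Reln, a matrix protein of lymphatic endothelium and neurons, was at 11.02, 14.7 and 41.3 CPM against 1.25 and 1.16 CPM, and Lyve1, a hyaluronan receptor also present on macrophages, was at 25.6, 35.3 and 30.5 CPM against 12.2 and 3.66 CPM. Pdpn, also made by fibroblasts, was at 74.5, 173 and 107 CPM against 22.2 and 45.9 CPM. Every castrated tumor was thus above both intact tumors in these 4 genes. Ccl21a, a chemokine of lymphatic vessels, was at 58.6, 51.6 and 107 CPM against 0.0893 and 7.13 CPM, although near-identical copies of this gene make its counts uncertain. The exception was Prox1, the defining transcription factor of lymphatic endothelium, which some epithelial cells also express. Prox1 was at 448, 145 and 151 CPM in castrated and at 457 and 62.0 CPM in intact samples, a log2 fold change of -0.06 (SE 0.92). Flt4, the receptor of VEGF-C and VEGF-D, was at 28.2, 20.04 and 30.9 CPM in castrated and at 25.7 and 6.85 CPM in intact samples, with overlap. Of the ligands, Vegfd and not Vegfc separated the groups.

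**Figure D4:**
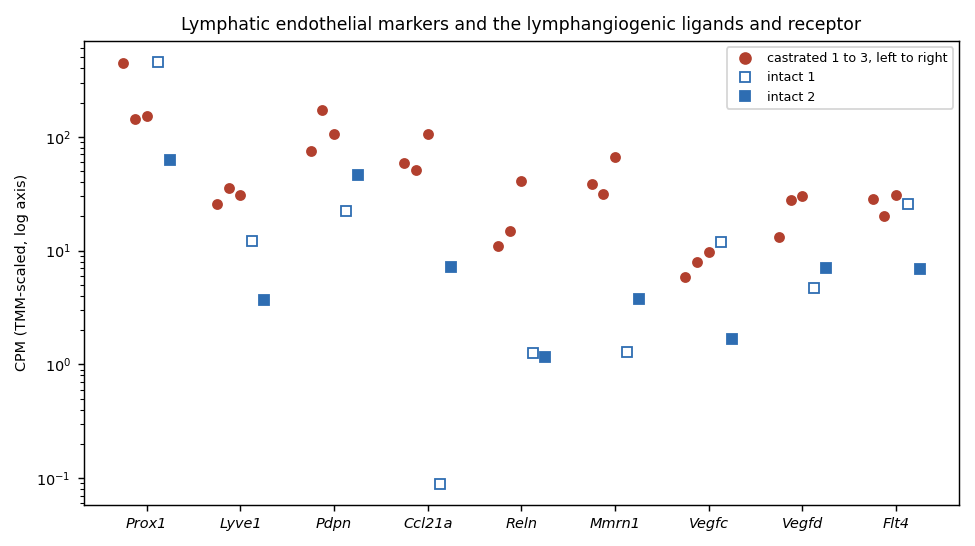
CPM with TMM scaling on a log axis for lymphatic endothelial markers and for Vegfc, Vegfd and Flt4, with castrated mice as red circles and intact mice as blue squares (open for replicate 1). Mmrn1, Reln, Lyve1, Pdpn, Ccl21a and Vegfd lie higher in all 3 castrated mice than in both intact mice, whereas Prox1, Flt4 and Vegfc overlap.

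Markers of other cell types moved with the groups, and their part in the results above was not tested. Macrophage markers were higher without overlap in 8 of 8 genes, against 17.0% of all genes tested. Their summed levels were 873, 2243 and 1184 CPM in castrated and 469 and 503 CPM in intact samples, with Cd68 the most abundant gene. Smooth muscle markers were higher without overlap in 7 of 8, at 412, 720 and 664 CPM against 246 and 156 CPM, with Acta2 the most abundant gene (log2 fold change 1.76) and Myh11 the one with the largest log2 fold change (3.70). Fibroblast markers were higher without overlap in 5 of 8, at 4739, 5894 and 7964 CPM against 4255 and 2622 CPM, with Dcn the most abundant gene (log2 fold change 2.35), while Col1a2 and Col3a1 differed by 0.01 and 0.09. Pericyte markers were higher without overlap in 2 of 8 tested, against 17.0% of all genes. Their sum, led by Anpep, was 666, 830 and 890 CPM against 296 and 363 CPM. Rgs5 and Pdgfrb, the usual pericyte genes among them, had log2 fold changes of 0.56 and 0.41 with overlapping groups. Rgs5 was at 307, 105 and 128 CPM in castrated and at 90.3 and 154 CPM in intact samples, and Pdgfrb at 83.4, 63.1 and 69.0 CPM against 84.5 and 23.3 CPM. Among castrated samples these 2 genes were highest in castrated replicate 1, as were Pecam1, Kdr and Tek, whereas Anpep, Abcc9, Notch3, Kcnj8, Cspg4 and Cox4i2 were highest in castrated replicate 2 or 3. The summed levels of these 4 lists were also highest in castrated replicate 2 or 3.

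Adipocyte markers separated castrated replicate 1 from the other castrated samples. Their sum, led by Lpl, was 200, 2183 and 1326 CPM in castrated and 78.8 and 271 CPM in intact samples, and Adipoq was at 0.522, 68.5 and 68.1 CPM against 0 and 0.0926 CPM. Among castrated samples, Pecam1, Kdr, Tek and Aplnr were highest in castrated replicate 1, where Adipoq was nearly missing. By contrast, Vegfd, Nrp1, Epas1 and Pdgfb were lowest there among castrated samples, as the adipocyte sum was. The part of adipose tissue in these results was not tested. Red blood cell markers were all highest in castrated replicate 1, with a sum led by Hbb-bs of 2049, 113 and 63.6 CPM against 6.74 and 195 CPM. Platelet and megakaryocyte markers summed to 63.0, 91.6 and 23.0 CPM against 10.9 and 8.11 CPM, of which Pf4, also made by macrophages, was the most abundant. Ppbp, a platelet chemokine, was at 15.6, 4.01 and 1.17 CPM against 1.92 and 0.973 CPM, and was highest in castrated replicate 1, as were Pecam1, Kdr and Tek. Itga2b, a defining platelet gene, was at 3.998, 1.60 and 2.28 CPM against 2.501 and 1.71 CPM, and Gp1ba, Gp1bb and Gp9 were at 0.661 CPM or less in every sample, with Gp1ba higher in all castrated than in both intact samples. T cell markers summed to 12.8, 35.2 and 38.9 CPM against 11.03 and 24.1 CPM. Of these, 0 of 5 were without overlap, against 17.0% of all genes higher and 16.1% lower.

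Genes of tumor cells and of oxygen supply were set beside Vegfa. Epithelial markers had a median log2 fold change of -0.23 with overlap in all 8, and summed to 3754, 3586 and 4596 CPM in castrated and 5157 and 4006 CPM in intact samples. Of the prostate secretory genes, Tgm4 was the most abundant and Msmb was at 0 in all samples. Of 9 hypoxia-inducible genes tested, 8 had a negative and 1 a positive log2 fold change, with a median of -0.49. Over all genes tested, 47.9% had a positive value. Ldha and Pgk1, enzymes of glycolysis, and Bnip3, a mitochondrial protein, were lower in all castrated tumors than in either intact tumor in CPM. The share of all genes lower without overlap was 16.1%. Pgk1 was the one with an unadjusted p under 0.05, against 6.28% of all genes that were lower at that p. Pgk1 was at 296, 262 and 180 CPM in castrated and 473 and 360 CPM in intact samples, a log2 fold change of -0.76. The summed level of these genes was 1330, 1415 and 1464 CPM in castrated and 2405 and 1441 CPM in intact samples, so that intact replicate 2 lay among the castrated samples. All 6 proliferation genes were lower without overlap, against 16.1% of all genes, and lower at an unadjusted p under 0.05, against 6.28%. Their median log2 fold change was -1.86. Their part in the lower Vegfa of castrated samples was not tested.

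For 4 members the tested genes with the most similar pattern over the 5 samples were listed, by the root mean square difference of centered log2 CPM. Among the nearest to Cdh5 were Slc20a1, a phosphate transporter, at a distance of 0.102, Chrnb1 (0.122), Wnt7a (0.135) and Cep72 (0.145). Slc20a1 was at 66.1, 65.0 and 51.0 CPM in castrated and at 193 and 29.5 CPM in intact samples, so that intact replicate 1 was highest and intact replicate 2 lowest, as for Cdh5. None of these 4 is a member or on the endothelial lists. Nearest to Vegfa were Mtcl1 (0.0655), Mars2 (0.0835), Bmp2 (0.151), Uck2 (0.169) and Fhod3 (0.174). Nearest to Angpt2 were Galnt3 (0.124), Arhgdig (0.160), Piezo2 (0.189), Morrbid (0.190) and Jaml (0.195), and nearest to Angpt1 were Glo1 (0.0841), Aff2 (0.102), 4931406C07Rik (0.138), Arhgef15 (0.142) and Gls2 (0.146). With 5 samples, such likeness is a description of these mice.

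**Figure D5:**
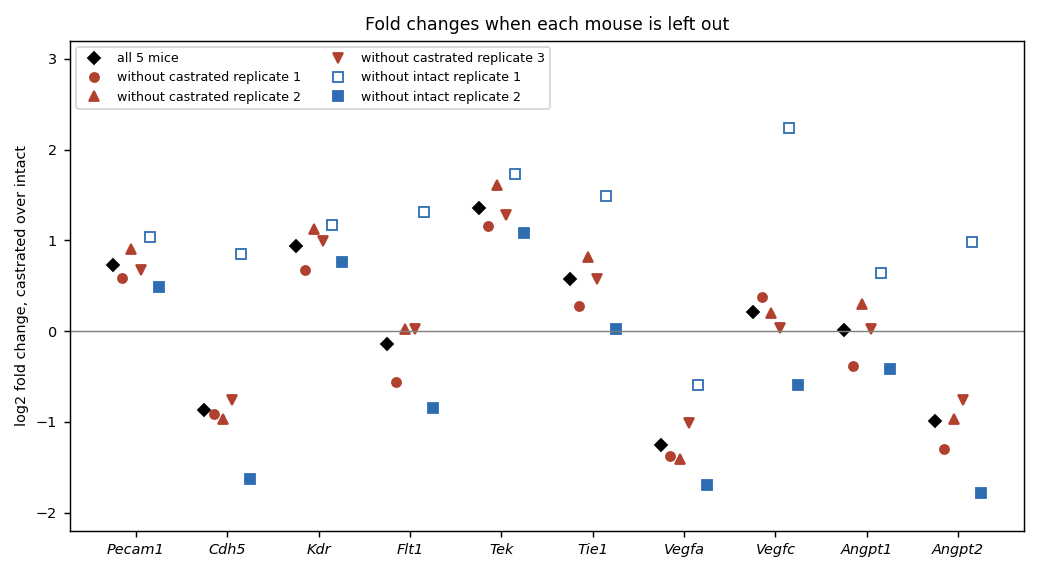
Log2 fold change of castrated over intact samples for each member, with all 5 mice and with each mouse left out in turn, and a line at 0. Pecam1 (0.48 to 1.04), Kdr (0.68 to 1.17), Tek (1.08 to 1.73) and Vegfa (-1.70 to -0.59) stay on their side of 0, whereas Cdh5 and Angpt2 cross it without intact replicate 1. The groups of Pecam1, Kdr, Tek and Vegfa did not overlap in CPM, so that their kept sign restates that separation.

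When each mouse was left out in turn, the log2 fold change of Pecam1 was between 0.48 and 1.04, that of Kdr between 0.68 and 1.17, that of Tek between 1.08 and 1.73 and that of Vegfa between -1.70 and -0.59. The smallest difference of Vegfa, -0.59, was the one without intact replicate 1. Tie1, whose groups overlapped, also kept its sign, at 1.49 without intact replicate 1 and 0.03 without intact replicate 2. The difference of Tie1 thus rested on intact replicate 2. The other 5 members changed sign in at least 1 of these fits. Without intact replicate 1, 9 members had a positive value and the median of the members was 1.10. Without intact replicate 2, 4 were positive and the median was -0.50. Without castrated replicate 1, 5 were positive and the median was -0.05. The direction of the set as a whole thus depended on single mice. The groups of Pecam1, Kdr, Tek and Vegfa did not overlap in CPM and stay apart when a mouse is left out. Their kept sign therefore restates that separation and is not a further result.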

How the data were processed

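Prostate tumors of 5 mice, grouped by the labels as castrated or intact, had been sequenced as bulk RNA. The authors depleted ribosomal RNA, used Trimmomatic 0.39 for trimming of paired-end reads, STAR 2.7.9 for alignment to mm10 and HTSeq 2.0.2 for counting, and they deposited raw counts without normalization. The deposited gene lengths served to compute TPM here. Counts were analyzed with R 4.3.3 and edgeR 4.0.16, with TMM normalization and no covariates, on genes that exceeded a CPM of 1 in 2 or more samples. A call in the quasi-likelihood test needed an absolute log2 fold change above 1 together with a Benjamini-Hochberg adjusted p below 0.05, after the study's methods, which name TPM as input; that input was tried as an alternative with limma 3.58.1, beside DESeq2 1.42.0, other scalings, other filters, the replicate number as a block and each mouse left out. Each SE was derived from the log2 fold change and its F statistic. The common dispersion was 0.238, so that mice differed by more than counting error would give. No pair of libraries within a group agreed within counting noise.

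The members and lists were chosen with earlier results of these data known. Genes named are all members, all tested genes of the other pathway list, the 3 tested genes of highest mean CPM in each further list, and the 5 genes nearest to Cdh5, Vegfa, Angpt1 and Angpt2. Tgm4, Pbsn, Msmb, Gp1ba, Gp1bb, Gp9, Mmrn1, Reln, Lyve1, Selp, She, Abcc9, Notch3, Kcnj8, Cspg4, Cox4i2 and the overlapping genes were named outside this rule, after their values were seen. Trac and Ca9 were not analysed here, and some genes that the rule names are not reported here. Scripts were tested on simulated data. Coordinates are those of the GRCm38 annotation and count from 1.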

Additional observations from a re-analysis of the deposited data

How the results depend on the processing

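Of 14612 genes, DESeq2 called 989 and the likelihood ratio test of edgeR 369, against 0 with the quasi-likelihood test, by which 2195 genes had an unadjusted p under 0.05. With DESeq2, 1 member was called, Tek, with a log2 fold change of 1.35, and 3 of the 18 other pathway genes, 3 of the 20 further endothelial markers and 5 of the 6 lymphatic markers were called. Leaving out single mice gave between 0 and 1 calls over all genes, 0 to 6 members with an unadjusted p under 0.05 (3 with all mice), 4 to 9 members with a positive value (6 with all mice), and medians of -0.50 to 1.10 for the members, 0.18 to 1.25 for the further endothelial markers and 2.68 to 3.28 for the lymphatic markers. Of the members, 1 had an unadjusted p under 0.05 with limma on log2(TPM + 1), and the median of the lymphatic markers was 2.04 there and 1.98 with a CPM above 1 required in all samples. The median of all genes was 0.12 in that fit, which differs in input, scaling and test, against -0.03 with the quasi-likelihood test on counts. With the replicate number as a block, which marks different animals (correlations of same-numbered deviations of 0.149 and -0.045), 0 genes were called, 1 member had an unadjusted p under 0.05 and 1046 genes did, and the lymphatic median was 2.78.

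Of 68 named genes, 42 kept their sign whichever mouse was left out, and 5 of the 10 members kept it under every alternative. Signs turned under limma voom for Flt1 (0.16), Pgf (0.46), Thbs1 (0.48) and Prox1 (0.31), with TPM as input for Flt1 (0.21), Pgf (0.25), Thbs1 (0.59), Ecscr (0.091) and Prox1 (0.45), with DESeq2 and with RLE size factors for Angpt1 (-0.0011 and -0.0011), and with the replicate block for Flt1 (0.29), Angpt1 (-0.055), Pgf (0.66), Thbs1 (0.84), Ecscr (0.35), Prox1 (0.60), Lck (-0.21) and Krt8 (-0.084). The cause was not tested. Leaving out single mice turned the sign of the others. These ranged from -1.63 to 0.85 for Cdh5, -0.84 to 1.31 for Flt1, -0.59 to 2.24 for Vegfc, -0.41 to 0.64 for Angpt1, -1.79 to 0.99 for Angpt2, -2.24 to 3.57 for Pgf, -2.53 to 0.14 for Esm1, -0.76 to 0.50 for Dll4, -1.49 to 0.27 for Apln, -0.16 to 1.12 for Egfl7, -0.96 to 2.15 for Thbs1, -1.37 to 1.67 for Ecscr and -0.88 to 2.02 for Prox1. For other cell types they ranged from -0.068 to 0.996 for Rgs5, -0.23 to 1.65 for Pdgfrb, -0.16 to 0.42 for Col3a1, -0.41 to 0.63 for Col1a2, -0.24 to 0.40 for Lck, -0.12 to 0.64 for Itga2b, -0.18 to 7.11 for Hbb-bs, -0.15 to 7.42 for Hba-a1, -0.62 to 10.3 for Hbb-bt, -0.31 to 0.51 for Krt8, -0.50 to 0.031 for Krt18, -0.92 to 0.48 for Epcam and -2.02 to 2.32 for Hoxb13. The spread between the 2 intact mice limits the comparison for Cdh5, Flt1, Vegfc, Angpt2 and Pgf, and the spread among castrated mice that for Esm1. The spread within both groups limits that for Cldn5 and the red blood cell genes.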
